A study of Mus musculus with 9 samples.

Results

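The genes examined here make up the lipoprotein lipolysis and fatty acid uptake route of the heart, 9 genes chosen by symbol from the 49585 rows of the count table. All 9 were among the 12670 genes with enough counts to be tested. Lipoprotein lipase, encoded by Lpl, cuts fatty acids from the triglycerides of circulating lipoproteins on the surface of capillaries. In the heart the enzyme is made mainly by cardiomyocytes, GPIHBP1 of the capillary endothelium carries it to the lumen and holds it there, and ANGPTL4 inactivates it. The freed fatty acids cross endothelium and muscle with the help of CD36 and the fatty acid transport protein encoded by Slc27a1, are bound in the cytosol by FABP3 and FABP4, and are activated to acyl-CoA by ACSL1. VLDLR, a receptor on the cell surface, binds the lipoproteins themselves.

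The RNA was that of whole ventricles without atria and valves. The mice were male C57BL/6 and ICR hybrids, in 3 groups of 3 libraries. Every group carried Tcf21iCre, an inducible Cre recombinase driven from a gene of the fibroblast lineage, together with the R26 tdTomato reporter, and received 2 mg of tamoxifen a day for 5 days at week 5. Ctrl hearts came from mice on normal chow. Ctrl_HF hearts came from mice kept for 15 weeks on a diet with 60% of kilocalories from fat and on 1 g/L of L-NAME, which blocks nitric oxide synthase, in drinking water. The labels name this HFpEF, heart failure with preserved ejection fraction, and it is called the model here. TTg_HF hearts came from mice with the same diet and L-NAME that also carried the MGTH2A transgene, known for joining Mef2c, Gata4, Tbx5 and Hand2. The Cre acts in the fibroblast lineage, while the RNA is that of all cells of the ventricle. A transgenic group on normal chow was not analysed here, which leaves diet, L-NAME and genotype changed together between TTg_HF and Ctrl. Age beyond the time on the model is not given in the labels, and nothing in them states that the libraries stem from separate animals. The p-values thus measure only how far these libraries spread, which may be technical.

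Libraries held 6743109 to 9364336 counts, and levels are given as CPM, which are counts after TMM normalisation scaled to a common library total. Mef2c, Gata4, Tbx5 and Hand2, which check the labels, were each higher in the 3 TTg_HF libraries than in all 6 others. Along the first principal component (31.2% of the variance) the Ctrl_HF libraries spread widely, at 5.12, 48.5 and 23.5 for replicates 1, 2 and 3, and the other 6 libraries lay between -23.5 and -2.33. Leaving out Ctrl_HF replicate 1 moved the number of genes called from 458 to 1122 in Ctrl_HF against Ctrl and from 11 to 665 in TTg_HF against Ctrl_HF, so calls on the 9 genes and on the lists that change without it are given with and without it. Summed markers of cardiomyocytes ranged from 64811 to 73765 CPM in Ctrl, 58674 to 61772 in Ctrl_HF and 59406 to 63080.3 in TTg_HF. Of the 13 markers 0 passed the test by edgeR in Ctrl_HF against Ctrl, where 6 had an unadjusted p under 0.05 and the median log2 fold change was -0.20. In that comparison Angptl4 ranked 1034 by p (unadjusted p = 0.00846 by edgeR) and Acsl1 3160 (0.0734). At least 1034 and fewer than 3160 of the 12670 genes tested thus had an unadjusted p under 0.05. Summed endothelial markers overlapped between the groups, at 1487 to 1643, 1549 to 1911 and 1399 to 1695 CPM in the same order. Ctrl and Ctrl_HF did not overlap in red cell markers (428 to 657 against 773 to 943 CPM), of which 0 of 5 passed by edgeR and 0 had an unadjusted p under 0.05. Nor did they in mural cell markers (1597 to 1826 against 1430 to 1543 CPM), of which 1 of 11 passed, Abcc9, which fell by 0.55 on the log2 scale (SE 0.08, adjusted p = 0.0068 by edgeR). The fall of Abcc9, from 773 ± 66.2 to 530 ± 20.2 CPM, was at least as large as that of the mean mural sum, from 1713 to 1476 CPM. The median log2 fold change of the 11 mural markers was -0.03, so the lower sum rested on this gene. Fibroblast markers were at 1704 to 1783 CPM in Ctrl and 2031 to 2203 in TTg_HF, and 0 of 9 passed by edgeR in that comparison, where 3 had an unadjusted p under 0.05. By the ranks of Angptl4 and Vldlr there, at least 724 and fewer than 1900 of all genes tested had such a p. The part of these cell types in the results was not tested. In RNA of a whole ventricle, fewer cells of a type and less RNA per cell cannot be told apart.

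Levels of different genes can be set side by side only per length. In Ctrl, per kilobase of exon, Fabp3 was highest, at 2398 ± 134 CPM per kilobase (SD, n = 3), and ranked 11 to 13 among 12356 genes with a length. Cd36 followed at 540.4 ± 46.5 and Lpl at 482 ± 5.64 CPM per kilobase. Acsl1 stood at 107 ± 5.52, Vldlr at 60.0 ± 5.04, Fabp4 at 55.6 ± 13.5, Slc27a1 at 28.4 ± 2.25 and Gpihbp1 at 23.7 ± 3.5 CPM per kilobase. Angptl4 was the lowest, at 1.26 ± 0.65. With these lengths Vldlr and Fabp4 did not differ beyond their spread, nor did Slc27a1 and Gpihbp1. These comparisons depended in part on the gene length used. With the longest transcript in place of the union of exons, Lpl stood at 1228 and Cd36 at 571 CPM per kilobase, in the opposite order. Slc27a1 was then at 51.6 ± 4.09 and Gpihbp1 at 36.6 ± 5.41 CPM per kilobase, which did not overlap, while Slc27a1 overlapped with Fabp4, at 59.0 ± 14.3. Fabp3, Acsl1 and Slc27a1 were the main members of their families in the ventricle. In Ctrl, Fabp3 made up 97.5% of the summed level per kilobase of Fabp3, Fabp4 and Fabp5, Acsl1 91.1% of that of the 5 Acsl genes, and Slc27a1 79.3% of that of Slc27a1, Slc27a3, Slc27a4 and Slc27a6. Fabp4 made up 2.28% of the Fabp level in Ctrl. Its union of exons, 4489 bases, spans the whole gene, and its longest transcript, 4231 bases, nearly all of it. A shorter transcript would give Fabp4 a higher level and share, so those given here are lower bounds, and the Fabp3 share is an upper one. In CPM without length Fabp4 stood at 0.128 ± 0.036 of Fabp3 in Ctrl (SD, n = 3). In Ctrl_HF the shares of the 3 main members were 97.5%, 90.0% and 80.7%, and in TTg_HF 97.4%, 91.2% and 83.7%.

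**Figure D1:**
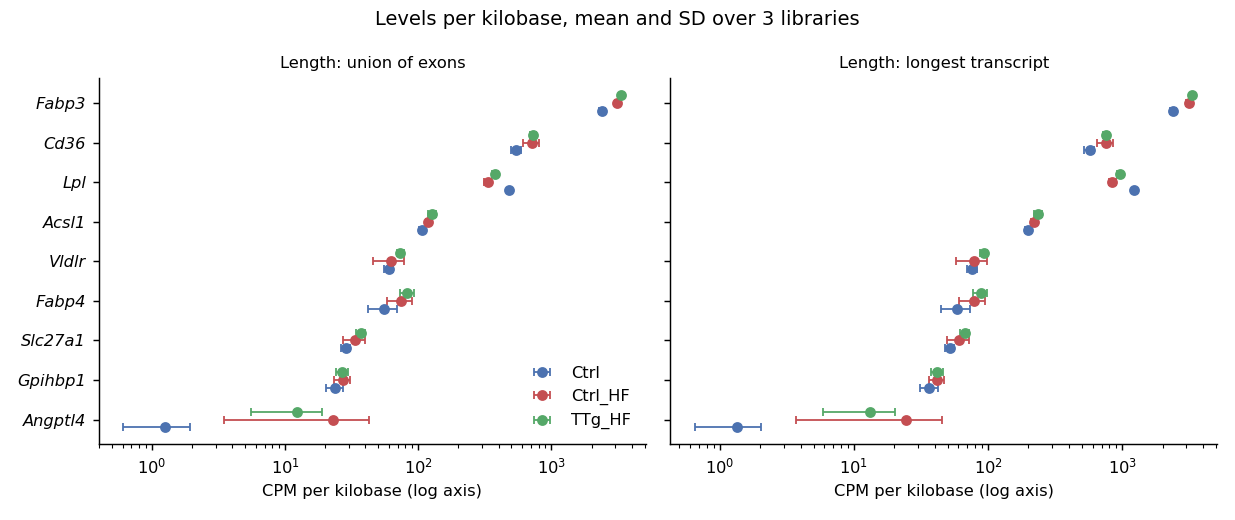
Level of each gene in CPM per kilobase on a log axis, as mean and SD over the 3 libraries of each group, with length taken as the union of exons (left) or as the longest transcript (right). Fabp3 is highest and Angptl4 lowest in Ctrl on both scales, while Cd36 and Lpl change places in Ctrl, where Lpl is at 482 CPM per kilobase with the first length and 1228 with the second.

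Start regions are shown for 2 uptake genes, Fabp3, called in Ctrl_HF against Ctrl, and Cd36, just outside the threshold there (adjusted p = 0.0511 by edgeR). They are the RefSeq windows of GRCm38.p6, the assembly of mm10, from 250 bases before to 50 after a start, on the gene's strand. Windows were at hand for 5 of the 9 genes, namely Vldlr, Cd36, Slc27a1, Fabp3 and Acsl1, and thus not for Lpl, the other called gene. Fabp3 lies at chr4:130308488-130308787 on the plus strand, and Cd36 at chr5:17835847-17836146 on the minus strand. The RefSeq start of these windows is 143 bases downstream of the GENCODE gene start used for the positions below in Fabp3, and 52905 bases downstream of it in Cd36, so the Cd36 window shows 1 start within the gene and not its outermost one. Capitals mark, in Fabp3, the start codon at positions 291 to 293 of the window, and in Cd36 the half-site of nuclear receptors at positions 23 to 28, where AGGTCA reads on the opposite strand, and the CCAAT box at positions 56 to 60.
Fabp3: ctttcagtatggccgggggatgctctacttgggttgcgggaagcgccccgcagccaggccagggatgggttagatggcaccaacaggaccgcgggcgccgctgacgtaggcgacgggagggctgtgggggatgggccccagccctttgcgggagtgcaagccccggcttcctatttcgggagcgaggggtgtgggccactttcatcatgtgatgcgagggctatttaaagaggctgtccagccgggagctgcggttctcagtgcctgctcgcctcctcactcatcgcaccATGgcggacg
Cd36: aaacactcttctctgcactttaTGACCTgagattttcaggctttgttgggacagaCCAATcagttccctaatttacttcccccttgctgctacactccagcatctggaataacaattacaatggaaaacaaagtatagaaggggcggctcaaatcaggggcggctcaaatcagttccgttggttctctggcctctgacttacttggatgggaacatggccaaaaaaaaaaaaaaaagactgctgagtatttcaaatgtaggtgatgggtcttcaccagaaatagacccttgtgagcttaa
Both strands were searched for AGGTCA, for its direct repeat with 1 base between (DR1), the general form of the element bound by PPAR with RXR, and for CCAAT and TATAAA. The repeat contains the half-site, so each of its matches also counts as matches of AGGTCA. Among 32851 windows of 300 bases, 16.3% held the half-site, 37.4% CCAAT, 13.6% TATAAA and 0.0396% the repeat. The repeat was in none of the windows of the 5 genes, and the Fabp3 window held none of the 4 motifs. A match describes these letters only.

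Whether the diet and L-NAME altered the route is the question of Ctrl_HF against Ctrl. Lpl RNA was lower and Fabp3 RNA higher in Ctrl_HF, and these 2 of the 9 genes passed the test. Angptl4, Cd36 and Acsl1 lay above all Ctrl libraries without passing it. In numbers, 1 gene was called higher, where 1.79% of all genes tested were, and 1 lower, where 1.82% were. All Ctrl_HF libraries were above all Ctrl libraries for 4 of the 9 genes, against 11.5% of all genes tested, and below them for 1, against 11.8%. The median log2 fold change of the 9 was 0.23, against 0.01 over all genes tested, and 8 of 9 were positive. The 9 genes were chosen with earlier results of these data known, so these counts carry no test.

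Lpl (chromosome 8, 68880491 to 68907448, plus strand) was at 4996, 5114 and 5048 CPM in Ctrl replicates 1, 2 and 3. In Ctrl_HF it was at 3651, 3521 and 3259 CPM, and in TTg_HF at 3751, 4127 and 3936 CPM. All Ctrl libraries were above all others, the Ctrl_HF libraries were the lowest, and the 3 groups did not overlap. In Ctrl_HF against Ctrl Lpl fell by 0.54 on the log2 scale (SE 0.06, 95% interval -0.67 to -0.41, adjusted p = 0.00342 by edgeR), to 0.688 of its Ctrl level. Only 7 genes in the whole table had a lower p. The call held under all 18 alternative settings, with adjusted p-values from 9.6e-10 to 0.0248. Summed cardiomyocyte markers moved in the same direction, so Lpl was also set against them within each library. The log2 ratio was -3.80 ± 0.09 in Ctrl, with a lowest library of -3.87, and -4.12 ± 0.05 in Ctrl_HF, with a highest of -4.08 (SD, n = 3). Against these markers Lpl was again lower in every Ctrl_HF library than in every Ctrl library.

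**Figure D2:**
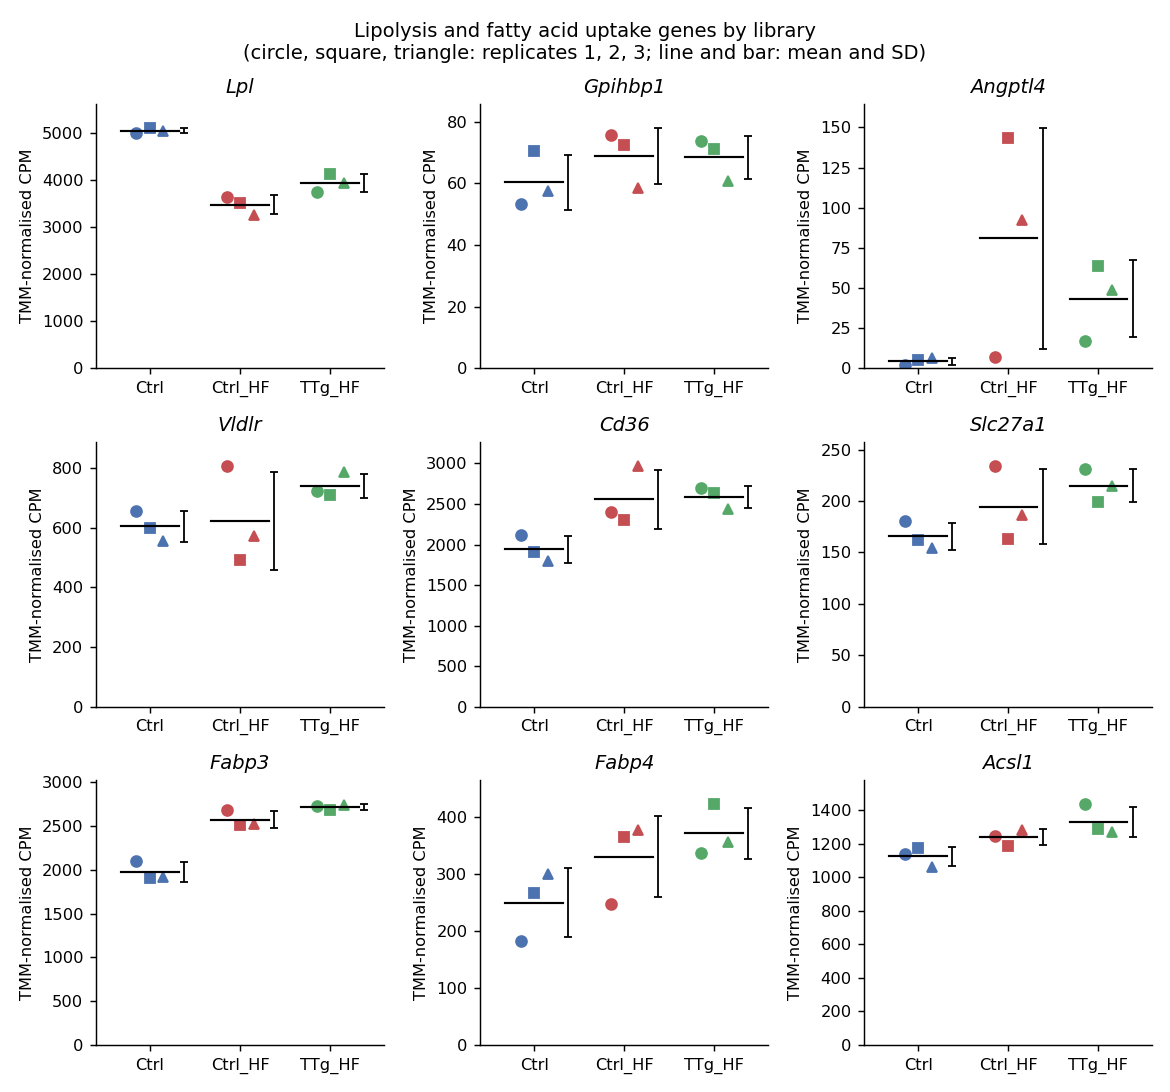
CPM of each gene in every library, by group, with symbols for the replicate number, a line at the mean and a bar for the SD (n = 3). Lpl is at 4996 to 5114 CPM in Ctrl and 3259 to 3651 in Ctrl_HF, Fabp3 at 1901 to 2100.5 in Ctrl and 2508 to 2685 in Ctrl_HF, and Angptl4 spreads from 7.39 to 144 CPM within Ctrl_HF.

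Gpihbp1 (chromosome 15, 75596628 to 75599481, plus strand), the partner of the lipase on capillaries, was at 53.3, 70.5 and 57.6 CPM in Ctrl, 75.7, 72.5 and 58.5 in Ctrl_HF and 73.9, 71.1 and 60.6 in TTg_HF. The groups overlapped, and the log2 fold change of 0.19 in Ctrl_HF against Ctrl (95% interval -0.11 to 0.48) did not pass the test (adjusted p = 0.468 by edgeR). The log2 ratio of Gpihbp1 to Lpl was -6.40 ± 0.19 in Ctrl, -5.66 ± 0.12 in Ctrl_HF and -5.85 ± 0.18 in TTg_HF. Its highest Ctrl library, at -6.18, was below every library with the model, the lowest of which was at -6.02.

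Angptl4 (chromosome 17, 33773750 to 33781830, minus strand), the secreted inhibitor of the lipase and a known PPAR target, had 15, 46 and 53 counts in Ctrl, or 1.85, 5.31 and 6.21 CPM. In Ctrl_HF it was at 7.39, 144 and 92.1 CPM, and in TTg_HF at 17.3, 64.0 and 48.9 CPM. Every library with the model was above every Ctrl library, but Ctrl_HF replicate 1 was close to Ctrl, and the highest Ctrl_HF library was 19.4 times the lowest. The log2 fold change in Ctrl_HF against Ctrl was 4.17 (SE 1.14), a ratio of 18 with a 95% interval from 2.75 to 117. Over all genes it missed the threshold, with an adjusted p of 0.104 by edgeR. Without Ctrl_HF replicate 1 it passed (4.71, adjusted p = 0.0156 by edgeR), as it did in the DESeq2 test (adjusted p = 0.00139). The log2 ratio of Angptl4 to Lpl was -10.32 ± 0.94 in Ctrl, -6.24 ± 2.36 in Ctrl_HF and -6.70 ± 0.93 in TTg_HF. Here too every library with the model, the lowest at -8.95, was above the highest of Ctrl, at -9.67.

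**Figure D3:**
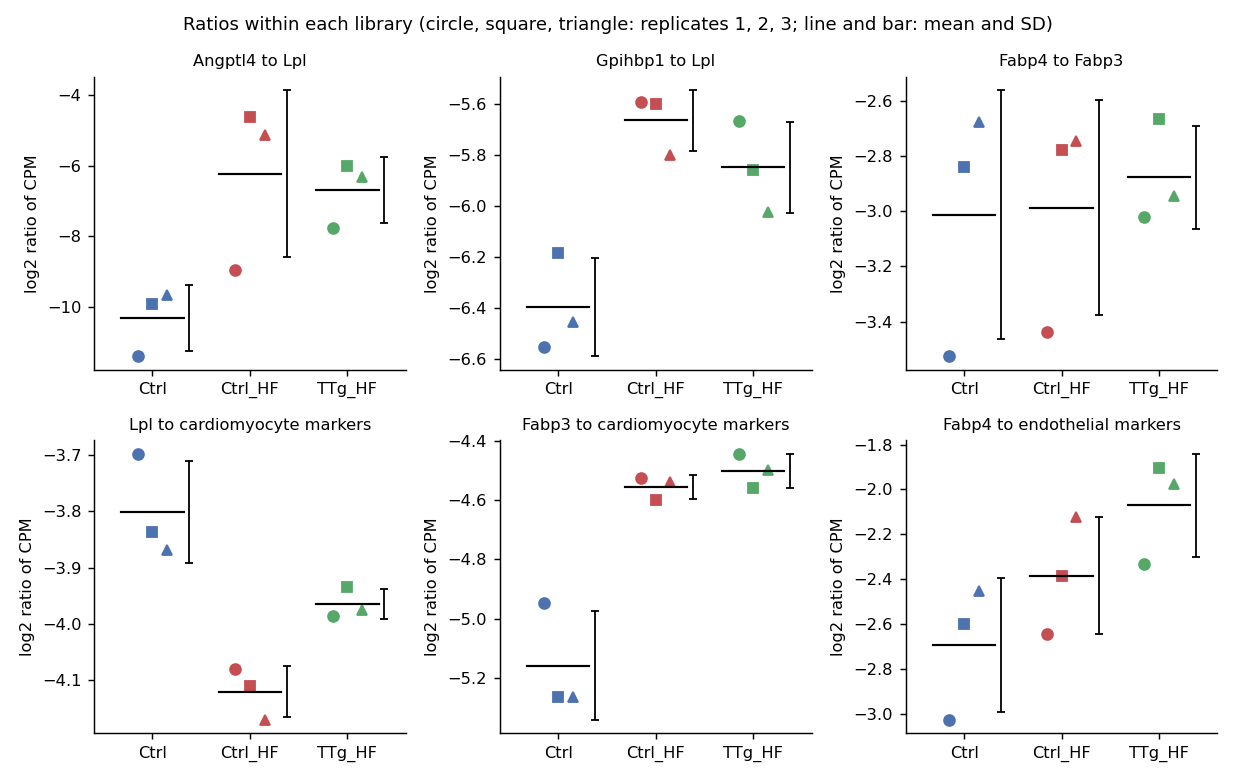
Log2 ratio of CPM within each library for 6 pairs of levels, by group, with symbols for the replicate number, a line at the mean and a bar for the SD (n = 3). Angptl4 to Lpl and Gpihbp1 to Lpl are higher in all 6 libraries with the model than in Ctrl, Lpl to cardiomyocyte markers is lower, and Fabp4 to Fabp3 overlaps between the groups.

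Vldlr (chromosome 19, 27216484 to 27254231, plus strand) was at 656, 599.9 and 555 CPM in Ctrl and 806, 489.7 and 572 CPM in Ctrl_HF. The Ctrl_HF libraries held both the highest and the lowest of these 6 values. Its log2 fold change was 0.04 (95% interval -0.31 to 0.40, adjusted p = 0.907 by edgeR). The sign rested on single libraries, since the value was -0.18 without Ctrl_HF replicate 1 and -0.014 without Ctrl replicate 3.

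Of the uptake genes, Cd36 (chromosome 5, 17781690 to 17888801, minus strand) was at 2119.9, 1909.8 and 1790.5 CPM in Ctrl, 2401, 2300.3 and 2969 in Ctrl_HF and 2699, 2633 and 2439 in TTg_HF. All 6 libraries with the model were above all 3 Ctrl libraries. The log2 fold change in Ctrl_HF against Ctrl was 0.40 (SE 0.10, 95% interval 0.18 to 0.61), just outside the threshold (adjusted p = 0.0511 by edgeR). Its adjusted p was 0.0326 without Ctrl_HF replicate 1, 0.0413 without Ctrl_HF replicate 2, 0.0262 with no filter on low counts (each by edgeR) and 0.0189 by DESeq2. Over the 18 alternatives the value was positive throughout. Both endothelium and muscle express Cd36. Its log2 ratio to summed endothelial markers was 0.29 ± 0.20 in Ctrl and 0.58 ± 0.30 in Ctrl_HF, and these overlapped. Its ratio to cardiomyocyte markers was -5.19 ± 0.22 in Ctrl, with a highest library of -4.93, and -4.57 ± 0.23 in Ctrl_HF, with a lowest of -4.72, and these did not.

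Slc27a1 (chromosome 8, 71568882 to 71587302, plus strand) was at 180.1, 162 and 155 CPM in Ctrl, 234, 163 and 187 in Ctrl_HF and 231, 199 and 215 in TTg_HF. Ctrl and Ctrl_HF overlapped, with a log2 fold change of 0.23 (95% interval -0.04 to 0.51, adjusted p = 0.327 by edgeR). Ctrl_HF replicate 1 was the highest library of its group for Slc27a1, Vldlr, Lpl, Gpihbp1 and Fabp3 and the lowest for Angptl4 and Fabp4. This order was not particular to Ctrl_HF for Slc27a1, Angptl4 and Fabp4, where replicate 1 held the same place in Ctrl and TTg_HF. For Vldlr, Lpl, Gpihbp1 and Fabp3 it did not hold that place in both.

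Fabp3 (chromosome 4, 130308595 to 130315463, plus strand), the fatty acid binding protein of heart muscle, was at 2100.5, 1901 and 1919 CPM in Ctrl. It was at 2685, 2508 and 2526 CPM in Ctrl_HF and at 2729.7, 2678 and 2739 CPM in TTg_HF. The highest Ctrl library was below the lowest library with the model. In Ctrl_HF against Ctrl Fabp3 rose by 0.38 on the log2 scale (SE 0.06, 95% interval 0.25 to 0.51, adjusted p = 0.00995 by edgeR), or 1.3 times. The call was lost without Ctrl replicate 2 (0.36, adjusted p = 0.0657 by edgeR), and in a fit of the 6 libraries of these groups alone it stood at 0.38 with an adjusted p of 0.0503. Exons of Fabp3 overlap the antisense genes Zcchc17, at 14.1 to 23 CPM, and Gm10570, at 0 to 5 counts, and the sources used here do not give the use of strand in the counting. Zcchc17 was not called in any comparison. The pseudogene Fabp3-ps1 held 0 to 3 counts per library. The log2 ratio of Fabp3 to cardiomyocyte markers was -5.16 ± 0.18 in Ctrl and -4.55 ± 0.04 in Ctrl_HF, with no overlap.

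Fabp4 (chromosome 3, 10204088 to 10208576, minus strand), known from adipocytes, macrophages and capillary endothelium, was at 182, 266 and 300.4 CPM in Ctrl, 248, 365 and 377 in Ctrl_HF and 337, 422 and 356 in TTg_HF. Ctrl and Ctrl_HF overlapped, and the log2 fold change of 0.40 (95% interval -0.07 to 0.88) did not pass the test (adjusted p = 0.323 by edgeR). Of 10 white adipocyte markers 1 had enough counts to be tested, and their summed level was 2.84 to 9.12 CPM in Ctrl, 0.731 to 3.29 in Ctrl_HF and 1.47 to 2.23 in TTg_HF. Adipoq, which defines these cells, held 0 to 4 counts per library, and Cfd was at 0 in all 6 libraries with the model. Among brown adipocyte markers Ucp1 held 0 or 1 count, while Cidea rose from 15.2 ± 2.11 to 26.9 ± 3.47 CPM (0.82 on the log2 scale, SE 0.14, adjusted p = 0.0122 by edgeR). The call on Cidea was lost without Ctrl replicate 2 (0.74, adjusted p = 0.0712). Summed macrophage markers were at 312 to 379 CPM in Ctrl and 409.7 to 544 in Ctrl_HF, and 2 of 15 rose, Mrc1 by 0.84 (SE 0.11, adjusted p = 0.0068) and C1qb by 0.62 (SE 0.12, adjusted p = 0.0221), both by edgeR. C1qb was not called without Ctrl replicate 2 (0.56, adjusted p = 0.105), Ctrl replicate 3 (0.64, adjusted p = 0.0724) or Ctrl_HF replicate 2 (0.61, adjusted p = 0.0503). Of 15 endothelial markers 1 rose, Ly6c1, by 0.78 (SE 0.12, adjusted p = 0.01 by edgeR). The part of macrophages or endothelium in the Fabp4 level was not tested. The log2 ratio of Fabp4 to Fabp3 was -3.01 ± 0.45 in Ctrl and -2.99 ± 0.39 in Ctrl_HF, and these overlapped.

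Acsl1 (chromosome 8, 46471037 to 46536051, plus strand), the main long-chain acyl-CoA synthetase of the heart, was at 1136, 1175 and 1061 CPM in Ctrl, 1244, 1187 and 1282 in Ctrl_HF and 1434, 1285 and 1269 in TTg_HF. Ctrl lay below both other groups, which overlapped with each other, and the lowest Ctrl_HF library was close to the highest Ctrl library. Its log2 fold change of 0.14 in Ctrl_HF against Ctrl (95% interval -0.02 to 0.29) did not pass the test (adjusted p = 0.294 by edgeR).

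**Figure D4:**
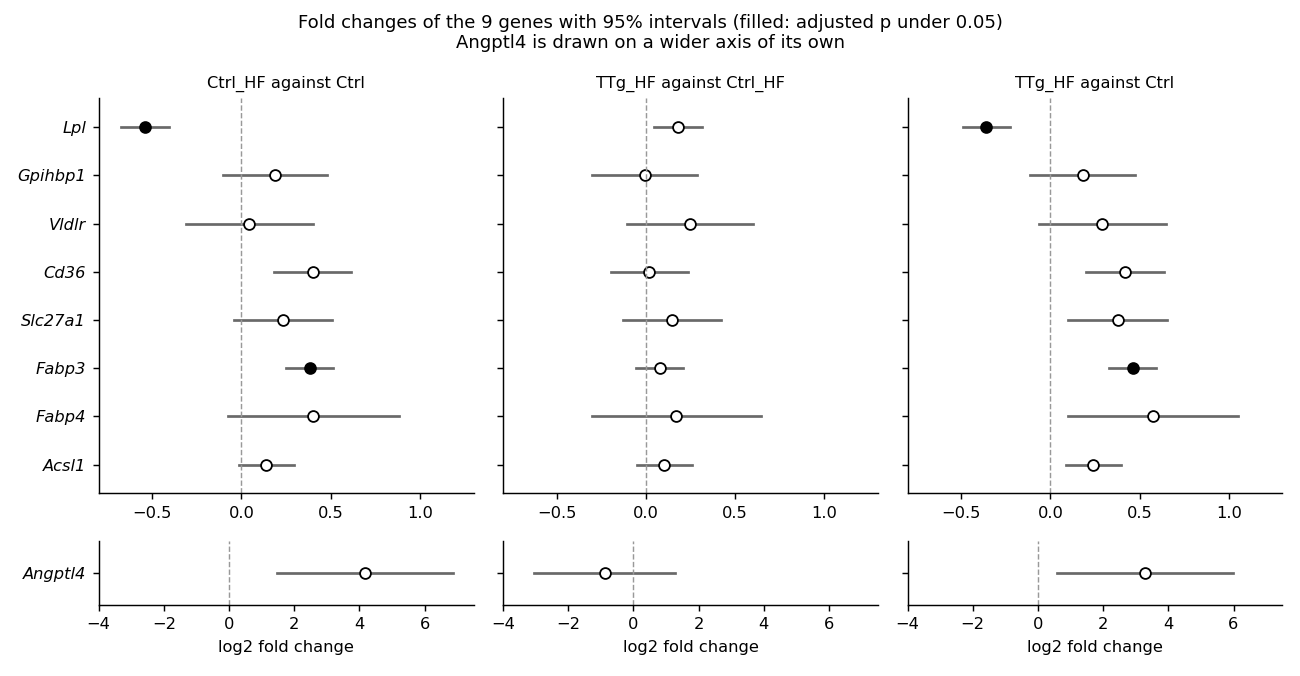
Log2 fold change of each gene with its 95% interval in the 3 comparisons, with filled points for an adjusted p under 0.05 by edgeR and Angptl4 on a wider axis. Lpl and Fabp3 are filled in Ctrl_HF against Ctrl (-0.54 and 0.38) and in TTg_HF against Ctrl (-0.36 and 0.46), and no gene is filled in TTg_HF against Ctrl_HF.

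The comparison of TTg_HF with Ctrl_HF asks whether the transgene altered the route within the model. By edgeR 0 of the 9 genes passed the test, where 0.0868% of all genes tested did. DESeq2 and limma-voom also called 0 of the 9, and 1 of 9 had an unadjusted p under 0.05, against 14.3% of all genes tested. That gene was Lpl, at 0.18 on the log2 scale (SE 0.06, 95% interval 0.05 to 0.31, adjusted p = 0.213 by edgeR). It was also the 1 gene of the 9 with all TTg_HF libraries above all Ctrl_HF libraries, against 9.31% of all genes tested. Its lowest TTg_HF library, at 3751 CPM, was close to its highest Ctrl_HF library, at 3651. Its log2 ratio to cardiomyocyte markers was -3.96 ± 0.03 in TTg_HF, with a lowest library of -3.99, against a highest of -4.08 in Ctrl_HF.

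For the other genes the intervals show how large a difference these libraries leave room for. Those of Fabp3 (log2 fold change 0.08, 95% interval -0.05 to 0.21), Acsl1 (0.10, -0.05 to 0.26) and Cd36 (0.02, -0.20 to 0.24) were the narrowest. Gpihbp1 had a log2 fold change of -0.01 (-0.30 to 0.29), Slc27a1 of 0.14 (-0.13 to 0.42) and Fabp4 of 0.17 (-0.30 to 0.65). Angptl4 had a log2 fold change of -0.89 with an interval from -3.06 to 1.28, that is, a ratio of 0.541 with an interval from 0.12 to 2.44. Vldlr was at 722, 709 and 785 CPM in TTg_HF, all below the 806 CPM of Ctrl_HF replicate 1 and above the other Ctrl_HF libraries. Its log2 fold change was 0.25 (SE 0.16, adjusted p = 0.511), and without Ctrl_HF replicate 1 it was 0.48 and passed the test (adjusted p = 0.0179, both by edgeR). The latter was the 1 call among the 9 genes under the 18 alternatives of this comparison, and it was seen in a fit in which the count over all genes was 665 in place of 11.

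TTg_HF against Ctrl shares its Ctrl libraries with the first comparison, so its values are given beside those and not as a second finding. Lpl was at -0.36 on the log2 scale (SE 0.06, adjusted p = 0.0253) and Fabp3 at 0.46 (SE 0.06, adjusted p = 0.0062), both called by edgeR, where 0.284% of all genes tested were called higher and 0.182% lower. All TTg_HF libraries were above all Ctrl libraries for 7 of the 9 genes, against 9.23% of all genes tested, and below them for 1, against 9.48%. The exception was Gpihbp1. The median log2 fold change over the 9 was 0.38. The call on Lpl was lost without any single Ctrl library (adjusted p = 0.0608, 0.159 and 0.108 without replicates 1, 2 and 3) and without any single TTg_HF library (0.123, 0.0790 and 0.131), with log2 fold changes from -0.39 to -0.32. Fabp3 lost its call without Ctrl replicate 2 (0.43, adjusted p = 0.0586 by edgeR). Cd36 had a log2 fold change of 0.42 (adjusted p = 0.121), Fabp4 of 0.57 (0.420), Slc27a1 of 0.38 (0.326), Acsl1 of 0.24 (0.223), Vldlr of 0.29 (0.642) and Angptl4 of 3.28 (0.425), all by edgeR. The log2 ratio of Fabp4 to endothelial markers was -2.69 ± 0.30 in Ctrl and -2.07 ± 0.23 in TTg_HF, without overlap, and -2.38 ± 0.26 in Ctrl_HF, which overlapped both. Aqp1, the marker of highest level in that sum in Ctrl, was at 355 ± 29.0 CPM in Ctrl and 225 ± 29.6 in TTg_HF. The difference in this ratio thus depends in part on Aqp1, and the ratio without it was not tested.

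Other genes of the route were taken from 7 lists, chosen with earlier results of these data known. Most calls by edgeR in Ctrl_HF against Ctrl were targets of PPAR, the nuclear receptors that bind fatty acids and act on genes of their use. These targets made up 9 of the 12 calls among the 70 tested genes of the lists. The others were 1 lipoprotein receptor, 1 transport and binding gene and 1 synthetase. Of all 12670 genes tested 458 were called, and at least 1034 but fewer than 3160 had an unadjusted p under 0.05. Among lipase partners, which mature, anchor or modulate the enzyme, 0 of 10 tested passed by edgeR, DESeq2 or limma-voom, 2 had an unadjusted p under 0.05, and the median log2 fold change was 0.04. The lowest p was that of Furin, a protease that cuts the lipase and ANGPTL proteins, with a log2 fold change of 0.29 (adjusted p = 0.145 by edgeR). Of 6 lipoprotein receptors 1 rose, Lrp1, an endocytic receptor of lipoprotein remnants, by 0.41 (SE 0.08, adjusted p = 0.0254), from 491 ± 25.2 to 651 ± 71.2 CPM. That call was lost without any single Ctrl library, without Ctrl_HF replicate 3 or without TTg_HF replicate 2 (adjusted p from 0.0537 to 0.0835), and without Ctrl_HF replicate 1 Lrp8 (2.92) and Sort1 (-0.71) were among those called beside it (adjusted p = 0.0109 and 0.0127 by edgeR). DESeq2 called 3 genes of this list and limma-voom 2. Of 7 further transport and binding genes 1 rose, Dbi, the acyl-CoA binding protein, by 0.74 (SE 0.10, adjusted p = 0.0068 by edgeR), from 57.9 ± 5.48 to 96.5 ± 10.1 CPM. Of 9 further acyl-CoA synthetases 1 rose, Acsf2, by 0.88 (SE 0.12, adjusted p = 0.0068 by edgeR), from 29.6 ± 4.36 to 54.4 ± 4.33 CPM. Their medians were 0.07 and -0.09.

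Among 9 genes of CD36 modification and traffic 0 passed by edgeR, DESeq2 or limma-voom, 1 had an unadjusted p under 0.05, and Vamp2, a vesicle protein, came closest (-0.23, adjusted p = 0.180 by edgeR). Among 10 genes of endothelial control of uptake 0 passed by the same tools, 3 had an unadjusted p under 0.05, and Tcf15, a transcription factor of cardiac endothelium known to act on Cd36 and Fabp4, came closest. Tcf15 had a log2 fold change of -0.67 (adjusted p = 0.136 by edgeR), and of -0.89 without Ctrl replicate 1, where it passed (adjusted p = 0.0386). Leaving out Ctrl_HF replicate 1 gave 1122 calls among all 12892 genes tested. In that fit 20 of the 70 tested genes of the 7 lists were called by edgeR in place of 12. Beside the receptors these took in Pcsk6 (-0.64) of the lipase partners, Tbc1d4 (-0.46) of CD36 traffic, Flt1 (0.34) of endothelial control, Acsl5 (0.51) of the synthetases and Plin2 (1.3) of the PPAR targets, with adjusted p-values from 5.07e-05 to 0.0431. They were named after their values were seen.

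**Figure D5:**
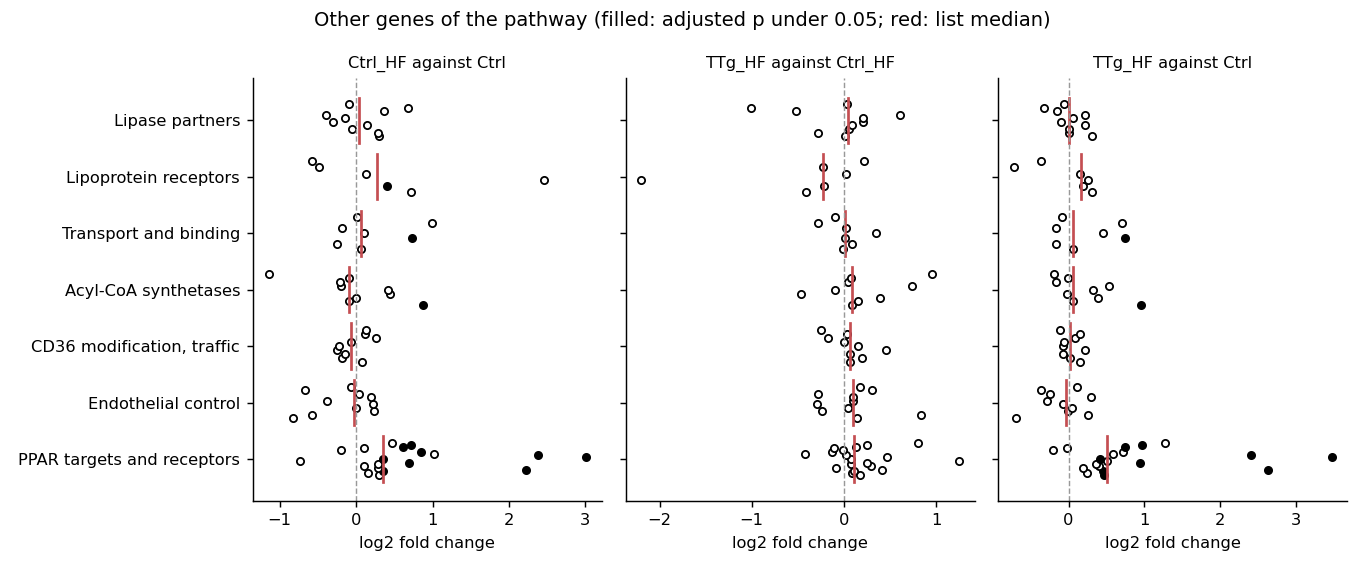
Log2 fold change of every tested gene of the 7 lists in the 3 comparisons, with filled points for an adjusted p under 0.05 by edgeR and a red line at the median of the list. In Ctrl_HF against Ctrl 9 of 19 PPAR targets and receptors are filled, all of them higher, 1 gene each among receptors, transport and synthetases, and in TTg_HF against Ctrl_HF no point is filled.

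Of 19 PPAR targets and receptors 9 rose and 0 fell in Ctrl_HF against Ctrl, with a median log2 fold change of 0.35. Of all genes tested 1.79% rose, and the median over them was 0.01. The list was chosen with earlier results of these data known, so these shares describe it and carry no test. Pdk4, which shuts pyruvate out of oxidation, went from 543 ± 100.2 to 2825 ± 916 CPM (2.38 on the log2 scale, SE 0.27, adjusted p = 0.00845 by edgeR). Decr1, of the oxidation of unsaturated fatty acids, rose by 0.69 (SE 0.08, adjusted p = 0.00484), and Slc25a20, the carnitine carrier of mitochondria, by 0.61 (SE 0.09, adjusted p = 0.0068). Others that rose were Acot1, a thioesterase of acyl-CoA, Plin5, a coat protein of lipid droplets, Ucp2, a carrier of the mitochondrial inner membrane, and Acadvl and Hadha, enzymes of long-chain fatty acid oxidation. These 5 calls were lost without Ctrl replicate 2 or Ctrl replicate 3 (adjusted p from 0.0721 to 0.185), which left 4 in each case. Ucp2 and Plin5 were also lost without Ctrl replicate 1, Ctrl_HF replicate 3 or any single TTg_HF library, Hadha without Ctrl_HF replicate 2, TTg_HF replicate 2 or TTg_HF replicate 3, and Ucp2 without Ctrl_HF replicate 2. Beside these, the 3 uptake genes Cd36, Slc27a1 and Acsl1, also known as PPAR targets in mouse tissues, had log2 fold changes of 0.40, 0.23 and 0.14, and none was called by edgeR with all libraries. Cd36 passed under the settings given above, DESeq2 among them.

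In TTg_HF against Ctrl_HF 0 of the 70 tested genes of the 7 lists passed by edgeR and 0 by limma-voom, against 4 by DESeq2. Of the 70, 17 had an unadjusted p under 0.05 by edgeR, where 14.3% of all genes tested did. Lowest p in its list had Ehhadh, a peroxisomal enzyme of fatty acid oxidation, at 9.14 ± 0.75 CPM in Ctrl_HF and 21.6 ± 7.02 in TTg_HF (1.25, SE 0.26, unadjusted p = 0.000763, adjusted p = 0.105 by edgeR). It passed without TTg_HF replicate 1 (1.48, adjusted p = 0.0274) and by DESeq2 (adjusted p = 0.00177). In the other lists the lowest p was that of Sdc4 (-1.01), Lrp8 (-2.20), Fabp5 (0.35), Acsl4 (-0.47), Tbc1d4 (0.46) and Notch1 (-0.29), with adjusted p-values from 0.172 to 0.280 by edgeR. Without Ctrl_HF replicate 1, 665 of all 12892 genes tested were called by edgeR. Of the 70 list genes 7 passed in that fit, 2 higher and 5 lower. Sdc4 (-1.19), Lrp8 (-2.66) and Tbc1d4 (0.68) were among them. The others, named after their values were seen, were Pcsk6 (0.86), Zdhhc5 (-0.36), Flt1 (-0.35) and Plin2 (-0.70), with adjusted p-values from 0.0028 to 0.0485, and with all libraries their log2 fold changes were 0.61, -0.25, -0.24 and -0.42. In TTg_HF against Ctrl Dbi (0.74, adjusted p = 0.0081) and Acsf2 (0.96, adjusted p = 0.0062) were called by edgeR, and 9 of 19 PPAR targets and receptors, all higher. Decr1 (0.94), Slc25a20 (0.75) and Acadvl (0.46) were among them, with adjusted p-values from 0.000726 to 0.0112 by edgeR. Plin2 was called beside these without Ctrl_HF replicate 1 (0.60, adjusted p = 0.0108 by edgeR). Acadvl was not called without Ctrl replicate 2 or 3 or TTg_HF replicate 1 or 2 (adjusted p from 0.0503 to 0.0831). In the lists with 0 calls, Hspg2 (0.22), Sort1 (-0.36), Tbc1d4 (0.21) and Rbpj (-0.25) had the lowest p, with adjusted p-values from 0.412 to 0.734 by edgeR. Dbi was not called without Ctrl replicate 2 (0.67, adjusted p = 0.0506), and the count of PPAR targets was 3 without Ctrl replicate 2, Ctrl replicate 3 or TTg_HF replicate 2, and 5 without TTg_HF replicate 1 or 3.

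The genes whose levels followed the 2 called genes most closely were ranked by Pearson's r of log2 CPM over the 9 libraries, among 11968 genes. For Lpl these were Atp5a1, a subunit of the mitochondrial ATP synthase (r = 0.99), Prelid2 (0.97) and Prkaca, a catalytic subunit of protein kinase A (0.97). For Fabp3 these were Ephx2, the soluble epoxide hydrolase (0.99), Decr1 (0.99) and Etfdh, which passes electrons from fatty acid oxidation to the respiratory chain (0.98). The libraries share their groups, so the values describe likeness over the same 3 conditions and carry no test. Spearman's rho left ties. For Lpl 5 genes tied at the highest rho of 0.98, and 1 of the 3 genes above was among them. For Fabp3 4 genes had a rho of 0.97 or more, and 2 of the 3 were among them.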

How the data were processed

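RNA of whole ventricles was measured in 9 libraries. Libraries were directional and made after depletion of ribosomal RNA, per the labels' protocols. The authors deposited whole-number counts per gene symbol, called expression values per the file headers. Beside them stand a signal, the count times 1 factor per library as tested on the file, and log2 of that signal plus 1, both made by the authors. The submitters' processing notes name mm10 as the build. Aligner, counting program, use of strand and annotation were not given in the sources used here. GENCODE vM21 matched 47121 (95.0%) of the row names and gave positions and lengths.

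Counts were filtered with filterByExpr of edgeR 4.0.16 (minimum count 10, minimum total 15), normalised by TMM and fitted in 1 robust quasi-likelihood model of all 9 libraries with group as the only term. Each comparison used its F test, two-sided, with p-values adjusted over 12670 genes by Benjamini-Hochberg and a threshold of 0.05. The SE is the absolute log2 fold change over the square root of F. The procedure was tested on simulated data. Rank or permutation tests of 3 libraries against 3 cannot go below 0.1 and were not used. Alternatives were DESeq2 1.42.0, limma-voom (limma 3.58.1), 3 other normalisations, other filters, the replicate block, 6 libraries alone and each library left out. R 4.3.3, Python 3.11.15 and matplotlib 3.10.9 were used.

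The 9 genes, the lists, the comparisons and the settings were chosen with earlier results of these data known. The 9 genes were named in any case, with up to 4 called genes of lowest p per list, or the 1 of lowest p where none was called, and the 3 most similar genes. Some genes of the lists are not reported here. Names of called cell type markers, the other called PPAR targets and list genes called without Ctrl_HF replicate 1 were added after their values were seen. Replicate numbers were not used to pair the libraries in the main fit, and whether they do is left undecided under the dependence on processing.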

Additional observations from a re-analysis of the deposited data

How the results depend on the processing

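Over 3 comparisons and 18 alternatives the 9 genes gave 455 values of unchanged sign and call, 10 that gained a call, 11 that lost one and 10 of opposite sign. Those of opposite sign were all small: Vldlr in Ctrl_HF against Ctrl (-0.014 without Ctrl replicate 3, -0.18 without Ctrl_HF replicate 1), and, in TTg_HF against Ctrl_HF, Gpihbp1 (0.029 with upper-quartile normalisation, 0.016 with the authors' factors, above 0 without Ctrl_HF replicate 1 or 2 or TTg_HF replicate 3, and -0.11 to 0.075 over all libraries left out in turn) and Cd36 (below 0 without Ctrl_HF replicate 1 or 2 or TTg_HF replicate 1, and -0.054 to 0.14 over all libraries left out in turn). The number of genes called in Ctrl_HF against Ctrl, 458, was 841 by DESeq2 and 126 with the 6 libraries alone, with 4 and 1 of the 9 genes in place of 2. In TTg_HF against Ctrl_HF, 11 calls became 339 by DESeq2, 109 with no filter and 0 with the 6 libraries alone. In TTg_HF against Ctrl, 59 became 182, 118 and 117 under the same settings, and the authors' factors left 1 of the 9 genes called in place of 2. Leaving out 1 library gave 85 (without Ctrl replicate 2) to 1122 (without Ctrl_HF replicate 1) genes and 1 to 4 of the 9 in the first comparison, 2 (without TTg_HF replicate 2) to 665 (without Ctrl_HF replicate 1) and 0 to 1 in the second, and 24 (without Ctrl replicate 2 or TTg_HF replicate 2) to 114 (without Ctrl_HF replicate 1) and 0 to 2 in the third. The cause was not tested. Same-numbered libraries of different groups had correlations of their deviations from -0.16 to 0.20 and others from -0.19 to 0.17, which overlapped. In every group, however, replicate 1 was the lowest library for Angptl4 and Fabp4 and the highest for Slc27a1. The other genes of the 9 had no such shared order. Correlations over all genes cannot decide whether the numbers pair the libraries for single genes. With the replicate block 415, 12 and 52 genes were called in the 3 comparisons, and 3, 0 and 1 of the 9. Angptl4 was then called in Ctrl_HF against Ctrl (3.92, adjusted p = 0.0368), and Lpl was not in TTg_HF against Ctrl (-0.36, adjusted p = 0.0620). Cd36 passed in TTg_HF against Ctrl by DESeq2 (adjusted p = 0.0405) and with the 6 libraries alone (0.0242), and Lpl did not with the authors' factors (0.0560). The 1 CPM added to both levels moved no ratio beyond its spread. By the longest transcript, 5 of 9 levels per kilobase moved beyond their spread. Angptl4 in Ctrl rests on 15 to 53 counts per library, which limits its precision.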
